A study of Homo sapiens with 2 samples.

Results

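The genes described here encode the small nuclear RNAs (snRNAs) of the spliceosome that RNA polymerase II transcribes, grouped as U1, U1 variant, U2, U4, U5 and minor spliceosome. They were taken from the RefSeq records of assembly GRCh38.p14 as genes of the snRNA biotype whose symbols start with RNU1-, RNVU1-, RNU2-, RNU4-, RNU4ATAC, RNU5, RNU11 or RNU12, with pseudogenes left out. This gave 33 genes of 59716 placed records, 4 for U1, 17 for U1 variants, 2 for U2, 2 for U4, 5 for U5 and 3 for the minor spliceosome. The genes themselves were chosen by symbol, but the set was selected on the high scores and ranks of PARP1 peaks at some of them in these same libraries. The counts, scores and ranks below are therefore a description and carry no test.

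The study mapped PRMT6, an arginine methyltransferase of histones, and PARP1, a poly(ADP-ribose) polymerase that responds to DNA damage, on chromatin in MDA-MB-231, a human cell line of triple-negative breast cancer. Both libraries came from cells with no stated drug, knockdown or transgene, and they differed only in the antibody, PRMT6 or PARP1, each from Cell Signaling Technology. By its methods the study used CUT&Tag, where the transposase Tn5 is tethered to the antibody and tags the DNA around it, while the labels also describe adaptor ligation to immunoprecipitated DNA, so the library chemistry is uncertain. Each antibody had 1 library and each peak list was deposited by itself, so no difference below has a replicate check. The cell line could not be checked against marker genes, since peak lists hold no expression values.

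The PRMT6 list held 9080 peaks and the PARP1 list 11651. The score of a peak, taken as the −log10 of the caller's p-value, was between 3.09 and 55.5 for PRMT6 peaks and between 3.02 and 85.0 for PARP1 peaks. Since its size depends on the depth of a library, which the lists do not give, scores were compared by rank (1 for the highest score of a list) and by percentile within their own list. Positions are those of GRCh38, counted from 1.

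The snRNAs are the RNA cores of the particles that remove introns. U1 pairs with the 5′ splice site, U2 with the branch point, and U4 delivers U6 in a complex that also holds U5, which aligns the exons. A minor spliceosome uses U11, U12 and U4atac for a small class of introns. Their genes have no TATA box in the core promoter and are read through a proximal sequence element bound by the SNAPc complex, and the 3′ end is cut by the Integrator complex rather than by the polyadenylation machinery. Many are present in several near-identical copies, and the U1 variants, on the long and short arms of chromosome 1 close to the centromere, differ from U1 by few or many bases.

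Sequences were found for 24 of the 33 genes among the GENCODE v44lift37 transcripts, matched by name. Positions below are those of the RefSeq records, which can be a few bases longer than the transcripts. The RNU5D-1 record (102 bp) is instead shorter than its transcript (116 nt), and the 5′ end used for it below is that of the record. The 4 U1 genes shared 1 sequence, and the variant RNVU1-18 had the same one. The first set shows U1 and 3 variants that differ in sequence and in their peaks, 5′ to 3′, with the bases that differ from RNU1-1 in capitals. RNU1-1 lies on the minus strand at chr1:16514122-16514285, RNVU1-7 on the minus strand at chr1:148038753-148038916 and RNVU1-6 on the minus strand at chr1:146052081-146052244. RNVU1-4 lies at chr1:120942600-120942763, where its strand in GRCh38 could not be settled.
RNU1-1: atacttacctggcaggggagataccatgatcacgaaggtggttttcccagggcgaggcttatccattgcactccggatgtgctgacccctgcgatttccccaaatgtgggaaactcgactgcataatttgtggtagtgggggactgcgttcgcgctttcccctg
RNVU1-7: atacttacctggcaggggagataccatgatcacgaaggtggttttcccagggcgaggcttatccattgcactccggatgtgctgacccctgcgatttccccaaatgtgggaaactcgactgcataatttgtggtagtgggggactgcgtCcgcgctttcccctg
RNVU1-6: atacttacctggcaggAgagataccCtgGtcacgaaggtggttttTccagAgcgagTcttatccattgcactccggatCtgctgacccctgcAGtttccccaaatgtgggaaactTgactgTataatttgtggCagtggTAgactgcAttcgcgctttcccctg
RNVU1-4: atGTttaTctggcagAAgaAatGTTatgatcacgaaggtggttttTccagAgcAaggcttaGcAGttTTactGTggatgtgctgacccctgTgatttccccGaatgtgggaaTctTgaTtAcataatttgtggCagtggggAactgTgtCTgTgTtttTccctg
RNVU1-7 differed from RNU1-1 at 1 position (T150C, counted from 1 at the 5′ end with the RNU1-1 base first). RNVU1-6 differed at 15 positions, the first of them G17A, so its first 11 bases, which hold the part that pairs with the 5′ splice site, were those of U1. RNVU1-4 differed at 33 positions, 3 of them in the first 11 bases (A3G, C4T and C8T). Of the 15 U1 and variant genes with a sequence, 10 had the first 11 bases of RNU1-1 and 5 of those 10 had a PARP1 peak, as did 4 of the 5 others.

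The second set shows the best PARP1-ranked gene with a sequence of U2, U4 and the minor spliceosome, again 5′ to 3′. Capitals mark the letters ATTTNTG or ATTTTTTG, searched on the transcribed strand, which resemble the site where the ring of Sm proteins assembles. RNU2-2 lies on the minus strand at chr11:62841619-62841809, RNU4-2 on the minus strand at chr12:120291759-120291903 and RNU4ATAC on the plus strand at chr2:121530880-121531009.
RNU2-2: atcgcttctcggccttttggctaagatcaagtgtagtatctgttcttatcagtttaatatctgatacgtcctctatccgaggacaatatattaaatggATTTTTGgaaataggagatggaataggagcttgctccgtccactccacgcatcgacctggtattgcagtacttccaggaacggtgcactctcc
RNU4-2: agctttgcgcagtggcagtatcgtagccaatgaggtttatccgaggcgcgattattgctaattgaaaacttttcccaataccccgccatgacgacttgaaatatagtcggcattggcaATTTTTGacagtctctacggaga
RNU4ATAC: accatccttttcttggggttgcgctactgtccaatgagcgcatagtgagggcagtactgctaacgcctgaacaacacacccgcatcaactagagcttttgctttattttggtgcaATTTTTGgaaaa
These letters were found once in all of the 24 sequences but that of RNVU1-15. They were in 4.8% of the 4859 annotated transcripts of 100 to 200 nt that are not snRNAs. The 2 U4 RNAs were 97.2% identical to each other, and the U1 variants 66.7% to 99.4%.

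PARP1 peaks were found near most of these genes and PRMT6 peaks near fewer of them. Of the 33 genes, 23 had a PARP1 peak within 1 kb (69.7%), beside 15.8% of all RefSeq records and 4.07% of the 8424 records of at most 300 bp. A PRMT6 peak lay within 1 kb of 13 genes (39.4%), beside 13.3% of all records and 2.97% of the short ones. All 13 genes with a PRMT6 peak also had a PARP1 peak, and at all 13 a peak of one list overlapped a peak of the other. The share of all records with peaks in both lists was 9.17%, and that of the short records 2.14%. A PARP1 peak alone lay near 10 genes, a PRMT6 peak alone near 0, and 10 genes had neither. The 10 genes with a PARP1 peak alone had a median PARP1 rank of 334.5 and the 13 with both a median of 44. In all, 26 PARP1 peaks and 13 PRMT6 peaks lay within 1 kb of the genes, since some genes had more than 1 peak and neighbours could share one.

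The ranks of the peaks differed between the lists. The best PARP1 peaks of the 23 genes had a median percentile of 99.5 and a median rank of 61, from 2 to 5850. The best PRMT6 peaks of the 13 genes had a median percentile of 73.5 and a median rank of 2410, from 352 to 3592. This percentile was 44.1 when PRMT6 and PARP1 peaks of the smallest width were left out and 47.2 within the higher-scoring 50% of each list, where each peak is ranked among fewer others. At 13 of 13 genes with both, the percentile was higher in the PARP1 list, by 3.86 to 38.3 percentage points (median 26.4). Of the PARP1 peaks elsewhere that overlap a PRMT6 peak, 48.9% had the higher percentile, and of those in the PARP1 top decile 73.2% did. Since the set was selected on high PARP1 ranks, the direction at the 13 genes follows in part from that choice. The top decile of the PARP1 list held the best peak of 20 genes, beside 2.29% of all records and 1.02% of the short ones. The top decile of the PRMT6 list held the best peak of 1 gene, RNU2-2, beside 2.02% and 0.653%. Among the 100 best-scoring peaks, 13 PARP1 peaks lay near these genes and 0 PRMT6 peaks did. Such a PARP1 peak lay near 0.255% of all records and 0.427% of the short ones, and such a PRMT6 peak near 0.29% and 0.202%.

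**Figure D1:**
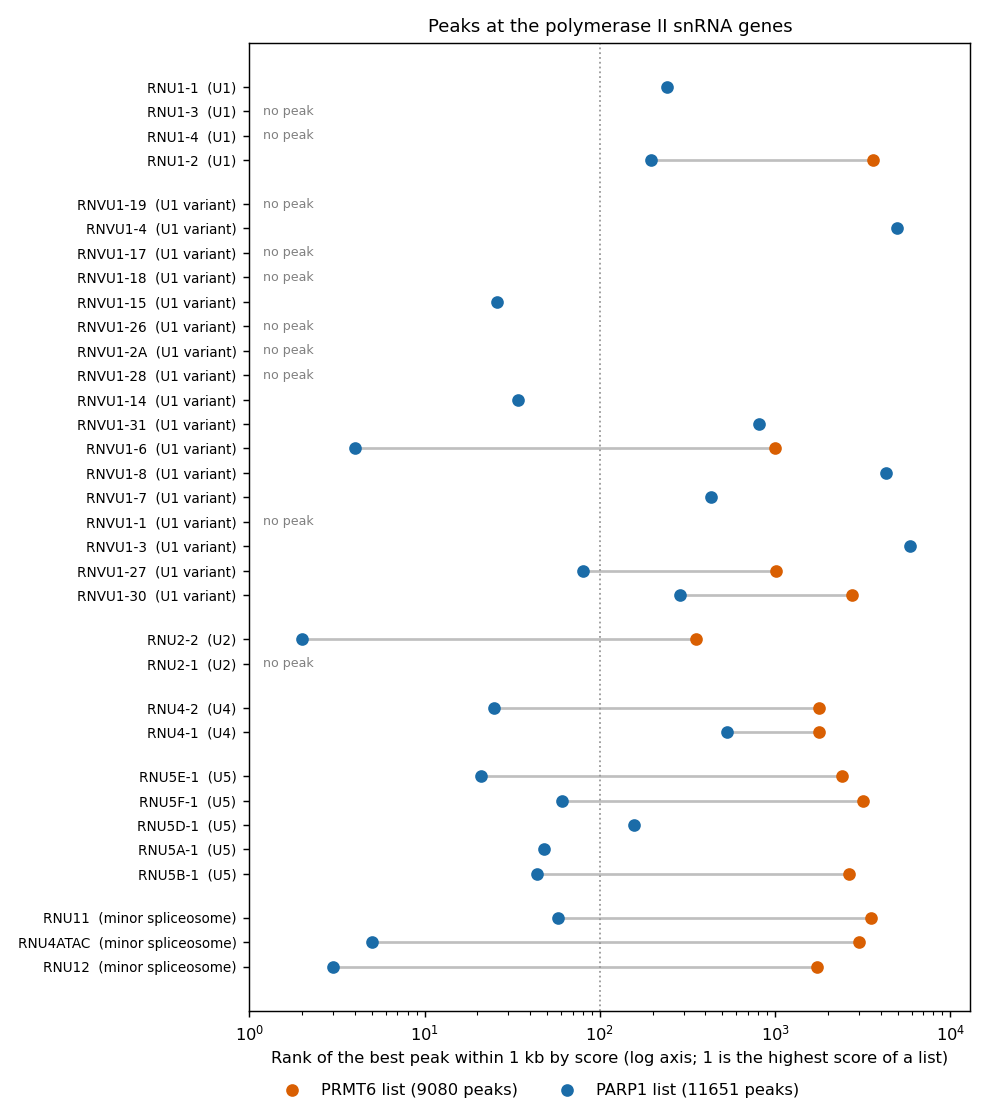
Rank by score of the best peak within 1 kb of each of the 33 snRNA genes, on a log axis where 1 is the highest score of a list, with PRMT6 in orange and PARP1 in blue. A grey line joins the peaks of a gene that has both, the dotted line marks rank 100, and at each of the 13 joined genes the PARP1 peak lies further to the left.

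The genes of the minor spliceosome, RNU12, RNU4ATAC and RNU11, had peaks in both lists at 3 of 3. RNU12, which encodes the U12 RNA that pairs with the branch point of minor introns, lay at chr22:42615244-42615393 under a PARP1 peak of rank 3 (chr22:42614790-42615880, score 56.1) and a PRMT6 peak of rank 1737 (chr22:42615319-42615868). The start of the coding gene POLDIP3 lies 361 bp away, and the PARP1 peak covered it, so the signal of the 2 genes cannot be told apart there. RNU4ATAC, which encodes the U4-like RNA of the minor spliceosome and lies within the record of CLASP1, had PARP1 rank 5 (chr2:121530849-121531569, score 51.7) and PRMT6 rank 3000 (chr2:121530940-121531572). Its nearest coding start was 118453 bp away. RNU11, whose RNA pairs with the 5′ splice site of minor introns, lay at chr1:28648600-28648734 within TAF12-DT. The record of the coding gene TAF12 lies 331 bp from RNU11, and its nearest start used here 5533 bp away. The PARP1 peak reaches beyond 331 bp on both sides of RNU11 and so overlaps the TAF12 record. The signal of the 2 genes cannot be told apart there either. RNU11 had PARP1 rank 58 (chr1:28648184-28649445, score 29.8) and PRMT6 rank 3526 (chr1:28648688-28649208), the widest gap between the lists at 38.3 percentage points. The class thus held 2 of the 5 best PARP1 peaks of the whole list.

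The U5 genes all had PARP1 peaks, 5 of 5, and 3 had PRMT6 peaks. Their PARP1 ranks lay close together. RNU5E-1 (chr1:11908152-11908272, plus strand) ranked 21 (chr1:11908319-11909117, score 37.3), with its peak starting 47 bp beyond the record. RNU5B-1 ranked 44 (chr15:65304727-65305449, score 31.96) and RNU5A-1 ranked 48 (chr15:65296053-65296741, score 31.3). These 2 genes lie on the same strand of chromosome 15 and each had a peak of its own. RNU5F-1, within the record of ARMH1, ranked 61 (chr1:44721193-44722094, score 29.7). RNU5D-1, near it on chromosome 1, ranked 156 (chr1:44730512-44731147, score 22.8) and had a weaker second peak of rank 3556. The PRMT6 list divided this class. RNU5E-1 had PRMT6 rank 2410 (chr1:11908412-11909002), RNU5B-1 2628 (chr15:65304907-65305337) and RNU5F-1 3163 (chr1:44721633-44721960). At RNU5A-1 and RNU5D-1 the nearest PRMT6 peaks were 8740 and 9109 bp away. The neighbours RNU5A-1 and RNU5B-1 thus had PARP1 scores of 31.3 and 31.96 while 1 of the pair was in the PRMT6 list.

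Both U4 genes had peaks in both lists, and they share some of them. RNU4-2 and RNU4-1 lie on the minus strand of chromosome 12, and the start of the coding gene SIRT4, which encodes a mitochondrial sirtuin, lies between them at 286 and 904 bp. RNU4-1 lies within the SIRT4 record, and the record of RNU4-2 overlaps it in part. The signal of RNU4-1 and SIRT4 cannot be told apart there. RNU4-2 had a PARP1 peak of rank 25 (chr12:120291141-120291834, score 36.2). RNU4-1 had a PARP1 peak of rank 528 (chr12:120292564-120293169, score 16.2). The 2 RNAs are nearly the same in sequence, but their PARP1 peaks were far apart in rank. A weak PARP1 peak between them, which covers the SIRT4 start, ranked 6115 (chr12:120292103-120292350). The PRMT6 order was the other way round. The peak beside RNU4-1 ranked 1782 (chr12:120292661-120293054) and the one 50 bp from RNU4-2 ranked 3212 (chr12:120291415-120291709). Because the former lies 758 bp from RNU4-2, it counts by the 1 kb rule as the best PRMT6 peak of both genes.

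The U2 class was split. RNU2-2, a single-copy U2 gene within the record of WDR74, had the strongest peaks of all 33 genes in both lists. Its PARP1 peak ranked 2 (chr11:62840596-62841844, 1249 bp wide, score 57.0) and its PRMT6 peak ranked 352 (chr11:62841003-62841664, score 15.3). The nearest coding start, that of WDR74, was 1960 bp away and was covered by neither peak. RNU2-1, the named gene of the U2 array on chromosome 17 (chr17:43233790-43233977), had no peak within 1 kb, and its nearest PARP1 and PRMT6 peaks were 6719 and 12393 bp away. Both peaks lay near unnamed snRNA records of 191 bp, the record length of RNU2-2. The PARP1 peak, of rank 950, was 585 bp from LOC124904135 and 171 bp from LOC124904136. The PRMT6 peak, of rank 2746, was 506 bp from LOC124904137. How many bases of RNU2-1 are unique could not be counted here, since no record of it was matched in the genome that was used for that count.

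Of the 4 U1 genes, which share 1 RNA sequence, 2 had PARP1 peaks and 1 had a PRMT6 peak. RNU1-2 (chr1:16895980-16896143, plus strand) had PARP1 rank 196 (chr1:16896059-16896946, score 21.3) and PRMT6 rank 3592 (chr1:16896182-16896574, score 6.0). RNU1-1 had PARP1 rank 241 (chr1:16513652-16514482, score 20.4) and its nearest PRMT6 peak 138027 bp away. RNU1-3 and RNU1-4 had neither, and their nearest PARP1 peaks were 11021 and 12865 bp away.

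The U1 variants ranged from the top of the PARP1 list to its middle. Of the 17 genes, 10 had a PARP1 peak, with ranks from 4 to 5850, and 3 had a PRMT6 peak. RNVU1-6, RNVU1-15, RNVU1-14 and RNVU1-27 were among the 100 best-scoring peaks. RNVU1-6, the strongest of them, had PARP1 rank 4 (chr1:146051585-146052291, score 52.3) and PRMT6 rank 992 (chr1:146051751-146052303, score 10.4). RNVU1-27 had PARP1 rank 80 (chr1:148522546-148523210) and PRMT6 rank 1012 (chr1:148522545-148523161), and its 2 peaks had nearly the same extent. RNVU1-30 had PARP1 rank 285 (chr1:149636710-149637081) and PRMT6 rank 2746 (chr1:149636612-149637110), the only one of the 13 genes with both where the PRMT6 peak was the wider. RNVU1-15 (rank 26, chr1:144412521-144412916) and RNVU1-14 (rank 34, chr1:145281078-145281778) had strong PARP1 peaks while their nearest PRMT6 peaks were 133906 and 439208 bp away.

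The remaining variants with a peak were in the PARP1 list alone. RNVU1-7, which differs from U1 by 1 base, ranked 428 (chr1:148038466-148038864) and RNVU1-31 ranked 806 (chr1:145465394-145465738). RNVU1-8 ranked 4307 (chr1:147084192-147084604), RNVU1-4 4970 (chr1:120942613-120942854) and RNVU1-3 5850 (chr1:148402729-148402952). Those 3 peaks lay in the middle of the list, at percentiles of 49.8 to 63.0. No peak of either list lay within 1 kb of RNVU1-19, RNVU1-17, RNVU1-18, RNVU1-26, RNVU1-2A, RNVU1-28 or RNVU1-1. The closest of these genes to the limit was RNVU1-2A, with a PRMT6 peak at 4846 bp and a PARP1 peak at 4927 bp. On the inside of the limit, the farthest best peaks were at 758 bp (RNU4-2) and 140 bp (RNU5E-1) for PRMT6 and at 47 bp (RNU5E-1) and 12 bp (RNVU1-8) for PARP1.

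The share of sequence that is unique in the genome differed between the classes and is given here beside the counts. It was counted as the share of 32-base words that occur once in the GRCh37 genome, over the record and 250 bp on each side, for the 24 genes with a record there. It was 0% at RNU1-3, RNU1-4, RNVU1-1, RNVU1-3, RNVU1-4 and RNVU1-7. It was 39.5% at RNU1-1, 33.2% at RNU1-2, 15.0% at RNVU1-15 and 50.2% at RNVU1-14, which all had PARP1 peaks. It was 62.4% at RNVU1-18 and 26.9% at RNVU1-19, which had a peak in neither list. The 2 U1 genes with PARP1 peaks were thus the 2 with some unique flank, but RNVU1-3, RNVU1-4 and RNVU1-7 had a PARP1 peak at 0%. At the 9 genes outside the U1 classes it was 86.9% to 99.8%, and all 9 had a PARP1 peak in the top decile. Of the 10 genes at or above 90%, 9 had a PARP1 peak, 8 of them in the top decile, and 6 had a PRMT6 peak. The gene of the 10 without one was RNVU1-17 (97.2%), which had a peak in neither list. RNVU1-6, with PARP1 rank 4, was at 92.7%. How the authors treated reads with several matches is not given in the sources used here, and its part in the other U1 ranks was not tested.

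At the genes with a known strand, the peaks lay mostly on and beyond the snRNA genes rather than before them. A strand could be given to 18 of the 33 genes, and 15 of these had a PARP1 peak. The other genes with a PARP1 peak, among them RNU12 and RNU11, could not be placed in this way. At RNU12 and RNU11 the PARP1 peak reached beyond both ends of the record, so part of it lay upstream whichever the strand. All 15 best PARP1 peaks were centred downstream of the 5′ end of the record, at 125.5 to 589.0 bp (median 346.0). Of the 15, 10 had no base upstream of the 5′ end, 5 covered that end, and 13 covered the 3′ end of the record. The median left edge was 23.0 bp and the median right edge 689.0 bp from the 5′ end, while the records are 102 to 191 bp long. At RNU2-2 the peak ran from −35 to 1213 bp, so that 81.9% of it lay beyond the gene. At RNU5A-1 it ran from 2 to 690 bp, at RNU4-2 from 69 to 762 bp and at RNU4ATAC from −31 to 689 bp. RNU5E-1 and RNVU1-8 were not touched by their peaks, which began at 167 and 152 bp. The largest upstream share among the 15 was 23.7%, at RNU1-1, from −197 to 633 bp. The peaks of RNU5F-1, from −192 to 709 bp, and RNVU1-6, from −47 to 659 bp, also covered the 5′ end. At RNU4-1 the peak ran from 68 to 673 bp, at RNU5B-1 from 50 to 772 bp, at RNU5D-1 from 23 to 658 bp and at RNU1-2 from 79 to 966 bp. At these 4 genes the left edge was within the gene and the right edge several gene lengths away. At RNVU1-7 the peak ran from 52 to 450 bp and at RNVU1-3, where it was narrowest, from 14 to 237 bp.

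**Figure D2:**
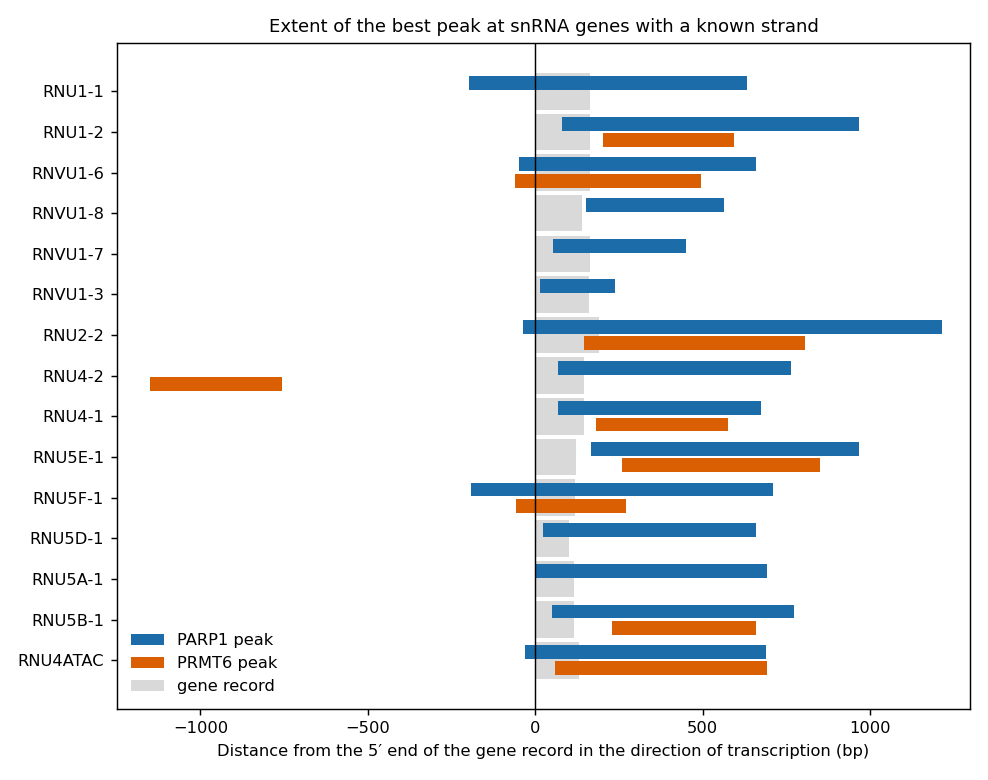
Extent of the best PARP1 (blue) and PRMT6 (orange) peak at the 15 snRNA genes with a strand and a peak, in bp from the 5′ end of the record (black line) in the direction of transcription, with the record as a grey box. The blue bars lie mostly to the right of the line, and the only orange bar wholly to its left is the peak of RNU4-1 counted for RNU4-2.

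PRMT6 peaks were placed alike. Of 9 genes with a strand and a PRMT6 peak, 8 had it centred downstream, and the median centre was 379.5 bp. The exception was RNU4-2 at −954.5 bp, whose best-scoring PRMT6 peak is the one beside RNU4-1. With the nearest peak in its place the count was 9 of 9. At RNU1-2, RNU4-1, RNU5E-1 and RNU5B-1 the PRMT6 peak did not reach the record, and began at 202, 183, 260 and 230 bp. At these 4 genes the PARP1 peak began earlier, at 79, 68, 167 and 50 bp. PARP1 peaks overlapped the record at 21 of 23 genes and PRMT6 peaks at 8 of 13. The PARP1 peak was the wider one at 12 of 13 genes, with a median width of 694 bp over the 23 genes, and the PRMT6 peaks had a median of 521 bp over 13. These were wider than the medians of 260 and 288 bp over each whole list, and none had the smallest width of its list. Within the PARP1 top decile, peaks near these genes had a median of 704.0 bp and those elsewhere 418.5 bp. Peaks elsewhere in the PRMT6 top decile had a median of 523.0 bp, although the best PRMT6 peak of only 1 of the 13 genes was in that decile.

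Coding genes are given beside the snRNA genes for the same measure. Of 4617 protein-coding starts with a PARP1 peak within 1 kb, 24.04% had it centred downstream, and the median centre was −128.0 bp. Of the 1591 with no other start within 3 kb, 19.9% did (median −122.0 bp). For PRMT6 the share was 23.1% of 3775 starts and 18.5% of 1312 isolated ones (median −135.25 bp). Over the snRNA genes with a strand, cover by the best PARP1 peak was 13.3% at 100 bp before the 5′ end and 33.3% at the end itself. It was 86.7% at 100 bp after that end and 100% from 167 to 237 bp. Cover by PRMT6 was 22.2% at the 5′ end and was highest, 88.9%, from 260 to 269 bp. At the 9 genes outside the U1 classes, 99.5% to 100% of the words in the 250 bp upstream and 93.2% to 100% of those downstream were unique in GRCh37, and all 9 had the PARP1 peak centred downstream.

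**Figure D3:**
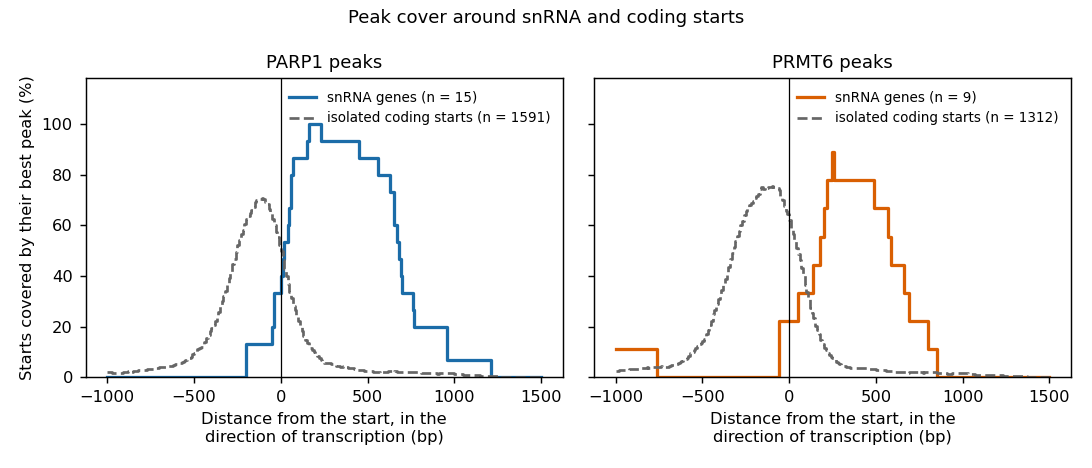
Share of starts covered by their best peak (%) at each distance from the start in bp, for snRNA genes with a strand (solid) and for coding starts with no other start within 3 kb (dashed), with PARP1 on the left and PRMT6 on the right. The cover of the snRNA genes is highest after the start, from 167 to 237 bp for PARP1 and from 260 to 269 bp for PRMT6, and that of the coding starts before it.

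The strongest PARP1 peaks at the snRNA genes were set beside other PARP1 peaks of like rank by the PRMT6 peak at the same place. Of the 13 among the 100 best-scoring PARP1 peaks, 10 overlapped a PRMT6 peak, and these partners had a median percentile of 72.3. Of the other 87, 84 overlapped one, with a median percentile of 98.6. These 87 included peaks at snRNA or pseudogene records outside the 33 genes, such as LOC124904147 (rank 17), RNU5A-8P (18), LOC124904613 (19) and RNU5E-6P (43). The partner was in the PRMT6 top decile for 69 of the 87 (79.3%) and for 1 of the 13 (7.69%), the one at RNU2-2. The 3 without a partner lay at RNVU1-15, RNVU1-14 and RNU5A-1. In the top decile of the PARP1 list, 13 of 20 peaks near these genes had a partner, at a median percentile of 71.1, and 1003 of 1146 others had one, at a median of 89.8. The 13 peaks had a median width of 721 bp and the 87 a median of 532 bp. Since the genes were picked with their PARP1 ranks known, this comparison was not tested.

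**Figure D4:**
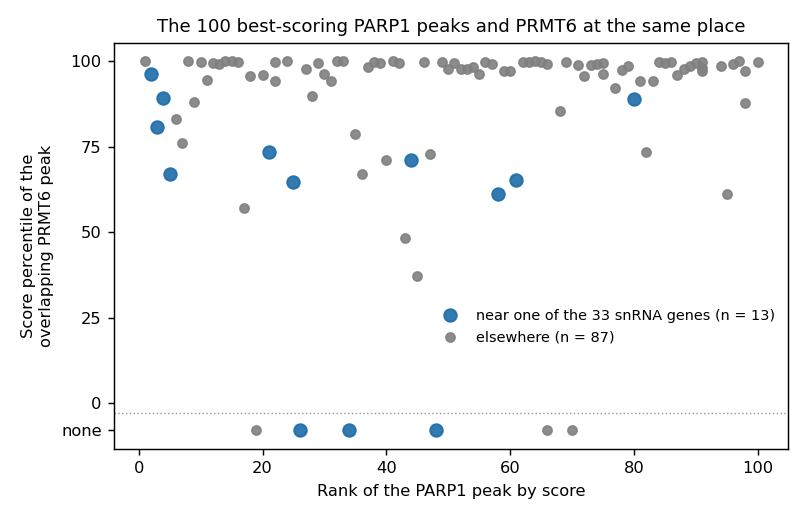
The 100 best-scoring PARP1 peaks by rank, with the score percentile of the overlapping PRMT6 peak on the vertical axis and peaks with no overlap in the row marked none. The 13 peaks near the 33 snRNA genes are blue and the 87 others, some of them at other snRNA records, grey. Of the blue peaks 3 and of the grey peaks 3 have no PRMT6 overlap.

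Genes whose products make snRNAs were examined at their own promoters. Starts were found for 32 of 40 listed genes. Peaks of both lists lay within 1 kb of a start for 12 of the 32 (37.5%), beside 14.1% of 15843 protein-coding genes. PARP1 peaks alone or with PRMT6 were found at 17 (23.1% of coding genes) and PRMT6 peaks at 14 (18.9%). Of the SNAPc subunits, which bind the snRNA promoter, SNAPC1 had both (PRMT6 rank 19, PARP1 rank 1465), 1 of 4 with a start. Of the activators, ZNF143 (414 and 202), SP1 (114 and 147) and POU2F1 (891 and 866) had both, 3 of 5 with the basal factors. In the little elongation complex, which works at snRNA genes, ELL ranked 16 for PRMT6 and 10 for PARP1 and ICE1 ranked 875 and 633. Of the Integrator subunits, 6 of 10 had both. They were INTS3 (1926 and 4889), INTS4 (490 and 373), INTS6 (1604 and 483), INTS7 (1268 and 5999), INTS13 (1156 and 2636) and INTS14 (3592 and 7686). Of the 10 genes of snRNA maturation and export, 0 had both. Of the 12 genes with both, the percentile was higher in the PRMT6 list at 6, SNAPC1, SP1, INTS3, INTS7, INTS13 and INTS14.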

How the data were processed

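Peak lists of PRMT6 and PARP1 in MDA-MB-231 cells were used as deposited, 1 library and 1 list per antibody. The study's methods name CUT&Tag, and the labels also describe ligation. Groups were taken from the antibody in the labels. The authors called peaks in each library by itself and deposited a chromosome, start, end and score per peak. The deposited score is taken as the −log10 of the caller's p-value. The submitters' processing notes name CASAVA 1.4, Bowtie 0.12.8, MACS, MACS2 and hg19. Duplicate handling, thresholds, any control library and the depth are not given in the sources used here.

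The positions did not match hg19. Of the PRMT6 peaks, 55 on 7 chromosomes ended beyond the GRCh37 chromosome ends, as did 61 PARP1 peaks on 5 chromosomes. Of 24 snRNA genes with records in both builds, 9 (PRMT6) and 18 (PARP1) had a peak within 1 kb by GRCh38 positions and 0 and 0 by GRCh37 positions. RefSeq records of GRCh38.p14 were therefore used. BED starts were raised by 1 so that positions count from 1.

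The distance from a peak to a gene was the gap to its record, 0 where they overlap, and the best peak of a gene was the highest-scoring one within 1 kb. The RefSeq table used here has no strand column. The strand came from the GENCODE v44lift37 record of the same name, kept where at least 3 neighbours within 300 kb all had the same strand in both builds and reversed where all were opposite (RNVU1-6, 15 of 15 neighbours). Binomial intervals over the genes were planned and are not given, since the genes include near-identical copies and neighbours with shared peaks and are not independent. Uniqueness was counted in GRCh37 only, a different build from the peaks. With 1 library per antibody no test was run. Every snRNA gene with a peak is named, and of the genes of snRNA synthesis those with peaks in both lists. The genes, lists and measures were chosen with earlier results of these data known. The distance counting was checked on simulated data. Python 3.11.15, numpy 2.4.6, pandas 2.3.3, scipy 1.17.1, Biopython 1.88 and matplotlib 3.10.9 were used. Alternatives covered the distance, the peaks kept, the overlap, the peak taken and the genes kept. Promoter letters were not searched, since promoter sequences of these genes in GRCh38 were not used here. The sequences of the U5 genes are not reported here.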

Additional observations from a re-analysis of the deposited data

How the results depend on the processing

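Over 11 results and 109 alternative values, 93 stayed within the limits set for a like value and 16 moved. Reversals were not checked separately, and counts were compared without regard to how many genes entered. Counting only peaks that overlap the record gave 8 genes with a PRMT6 peak, 8 with both, 8 with overlapping peaks and 8 of 8 with the higher PARP1 percentile. The median PRMT6 percentile was 47.2 with the higher-scoring 50% of each list and 44.1 without peaks of the smallest width, settings that rank each peak among fewer others. Without the U1 variants, PARP1 peaks lay near 13 of 16 genes and PRMT6 peaks near 10. Without U1 and its variants, PARP1 peaks lay near 11 of 12 genes and PRMT6 peaks near 9. The PRMT6 share was thus above the 13 of 33 (39.4%) with all genes. In the latter setting, 9 of 9 PARP1 and 6 of 7 PRMT6 peaks were centred downstream. With only genes at least 90% unique, PARP1 peaks lay near 9 of 10 genes and PRMT6 peaks near 6, with 6 having both, 6 overlapping and 6 a higher PARP1 percentile, and 9 of 9 PARP1 and 5 of 6 PRMT6 peaks were centred downstream. These counts fall because fewer genes enter. The settings for the position of peaks, and those leaving out genes near coding starts, were chosen after seeing the data. No paired analysis was possible because PRMT6 and PARP1 were profiled in 1 library each. The planned search of promoter letters was not run. Without depth or replicates, a gene with no peak cannot be called unbound, and how reads of near-identical U1 genes were placed was not tested.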

Other observations

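Some pseudogenes of the same classes had PARP1 peaks of high rank. Of 325 pseudogene records of the same classes, 8 had a PARP1 peak within 1 kb (2.46%) and 8 a PRMT6 peak (2.46%), beside 4.07% and 2.97% of all records of at most 300 bp. Whether these shares differ was not tested, and the pseudogene records are not all that short (RNU4-8P has 679 bp). RNU5A-8P (chr1:210374154-210374267) lay under a PARP1 peak of rank 18 and a PRMT6 peak of rank 384, which is a better PRMT6 rank than all but 1 of the 33 genes had. RNU5E-6P (chr1:44819883-44819997) had PARP1 rank 43 and a PRMT6 peak of rank 4689 at 104 bp. RNU2-63P ranked 161 for PARP1 with no PRMT6 peak within 1 kb. RNU5E-4P lies within 1 kb of the peaks of RNU5E-1 and has none of its own. These records were named after their values were seen.

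Of 84 snRNA records without a gene name, 7 had a PARP1 peak (8.33%) and 5 a PRMT6 peak (5.95%), beside the same 4.07% and 2.97%. The PARP1 ranks ran from 17 to 3200, and 2 of the records, LOC124904135 and LOC124904136, share 1 peak of rank 950. That peak is the PARP1 peak nearest to RNU2-1. On chromosome 17, LOC124904147 (chr17:43367899-43368087) had PARP1 rank 17 and PRMT6 rank 3890. It lies 133922 bp from RNU2-1, which had no peak within 1 kb. LOC124904613, at chr1:146376807-146376970 and 324563 bp from RNVU1-6, had PARP1 rank 19 and a PRMT6 peak of rank 6841 at 97 bp. RNU7-1, which encodes the U7 RNA that processes histone messenger RNAs, had PARP1 rank 396 (chr12:6943880-6944388), beginning 2 bp beyond the record, and no PRMT6 peak within 1 kb. Of the 28 SNAR records, 0 had a peak in either list.

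Among 7 genes of U6, U6atac and 7SK RNAs, which polymerase III reads from a like promoter, 3 had a PARP1 peak and 4 a PRMT6 peak. The shares of all records were 15.8% and 13.3%, and those of the short ones 4.07% and 2.97%. RNU6-7 had a PRMT6 peak alone, of rank 6841 and 456 bp away. RNU6ATAC had PRMT6 rank 522 and PARP1 rank 1567, RNU6-2 had 1088 and 3265, and RN7SK had 2235 and 5592. At these 3 genes PRMT6 had the better rank, the opposite order to that at the 13 polymerase II genes with both peaks. The difference was not tested.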
